A study of Mus musculus with 20 samples.

Results

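The collagen genes of the mouse knee joint were followed across 4 treatments of surgically induced osteoarthritis. A gene was taken when its symbol consisted of Col, a type number, the letter a and a chain number, which left out collagen-like proteins and antisense transcripts, and 41 of the 14793 genes in the deposited table met this rule. They were grouped by the tissue and assembly in which each chain is known to work. There were 7 fibrillar chains outside cartilage, 8 cartilage chains, 9 basement membrane chains, 5 FACIT chains outside cartilage, 7 beaded filament and short-chain collagens and 5 transmembrane or other chains. FACIT collagens (fibril-associated collagens with interrupted triple helices) do not form fibrils but sit on the surface of fibrils made by other types. Col19a1, Col21a1, Col26a1 and Col6a4 were not analysed here.

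The joints came from C57BL/6Nci male mice aged 12 weeks that underwent destabilization of the medial meniscus (DMM) of the right knee, a surgery that leads to osteoarthritis, so the control joints were operated joints too. Control joints (CTRL) received needle insertion alone, and the other 3 groups received 250000 mesenchymal stromal cells (MSC) from adipose tissue into the joint at weeks 3 and 5 after surgery. In the MSC group the cells were not activated, in the TLR group (TLR3-MSC) they had been exposed to pIC, an agonist of Toll-like receptor 3, and in the STING group (STING-MSC) to 2′,3′-cGAMP, an agonist of the STING pathway, with 10 µg/mL of agonist for 2 h in both cases. Each group had 10 mice, and bulk RNA sequencing was available for 5 joints per group, 20 in all. The injected cells came from 1 pooled donor source, so the groups do not sample several cell donors. Cartilage, synovium, capsule and subchondral bone were processed together, collected 8 weeks after surgery according to the methods and 24 h after injection according to another passage. The column headers carry a code shared by all joints of a group, whose meaning is not given, so that anything it stands for cannot be told apart from the treatment.

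Collagen chains wind around each other into a triple helix inside the endoplasmic reticulum, where prolines and lysines are hydroxylated, and the trimers are then secreted, trimmed and cross-linked outside the cell. Types I, III and V build the fibrils of bone, ligament, capsule and synovium, while types II, IX and XI build those of cartilage and type X surrounds hypertrophic chondrocytes. Type IV forms the network of every basement membrane, and type VI forms beaded microfibrils around cells.

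Promoter sequence is shown for 4 fibrillar chains, chosen by name and not by their levels, so that the start regions of partner genes can be compared. Each run holds the 150 bases upstream of the annotated start of the gene's canonical transcript (GRCm39, GENCODE M39), 5′ to 3′ on the gene's own strand, and capitals mark the CCAAT box by those 5 letters, the TATA box by TATAAA and the GC box by GGGCGG, each on either strand. Col1a1 and Col1a2 encode the α1 and α2 chains of type I, Col3a1 encodes type III and Col5a2 the α2 chain of type V.
Col1a1, chr11:94826900-94827049, plus strand: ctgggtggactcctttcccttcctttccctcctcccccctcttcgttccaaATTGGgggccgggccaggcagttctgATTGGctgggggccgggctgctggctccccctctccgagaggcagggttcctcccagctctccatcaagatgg
Col1a2, chr6:4505343-4505492, plus strand: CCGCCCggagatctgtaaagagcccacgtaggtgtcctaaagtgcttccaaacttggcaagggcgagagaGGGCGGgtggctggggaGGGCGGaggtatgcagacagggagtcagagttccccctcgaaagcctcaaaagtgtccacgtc
Col3a1, chr1:45350548-45350697, plus strand: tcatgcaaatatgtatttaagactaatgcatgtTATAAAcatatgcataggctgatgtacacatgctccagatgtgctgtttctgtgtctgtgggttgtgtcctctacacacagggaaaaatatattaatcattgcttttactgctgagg
Col5a2, chr1:45542443-45542592, minus strand: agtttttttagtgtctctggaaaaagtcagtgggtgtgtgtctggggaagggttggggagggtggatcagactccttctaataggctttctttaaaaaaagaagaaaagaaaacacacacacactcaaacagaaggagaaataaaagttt
The Col1a1 window holds 2 CCAAT boxes on the opposite strand, the Col1a2 window holds 3 GC boxes, the Col3a1 window holds 1 TATA box, and the Col5a2 window holds none of these letters. In the Col1a2 run, 27 bases lie in an annotated exon. In windows of 250 bases, CCAAT was found on either strand in 14 of the 41 collagen genes (34.1%) and in 35.5% of 14770 genes, TATAAA in 6 (14.6%) and in 7.98%, and GGGCGG in 20 (48.8%) and in 46.5%. A match is a description of the letters and not a measured binding site.

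Several collagen genes are neighbours in the genome. Col3a1 (chr1:45350698-45388867) and Col5a2 (chr1:45413481-45542443) face each other with 24613 bases between them. The type IV genes lie in head-to-head pairs, Col4a4 and Col4a3 on chromosome 1 with 70 bases between them, Col4a6 and Col4a5 on chromosome X with 1307, and Col4a1 and Col4a2 on chromosome 8 overlapping by 23. By the GENCODE M39 exons, Col4a1 and Col4a2 share 311 bases and Col4a3 and Col4a4 share 159, so reads there could not be assigned to 1 gene of the pair with certainty, and strand-specific counting was not stated. Of the 41 genes, 24 shared some exonic bases with another annotated gene, and the share was over 10% for Col10a1, Col18a1, Col1a2 and Col9a3.

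The joints held 27955496 to 52529972 reads on genes (median 33523061.5), recovered from the normalized counts, of which 98.9 to 99.9% fell within 0.05 read of a whole number. No collagen value was 0 in any of the 820 gene and joint combinations, and all 41 genes passed the filter on low values. All joints carried the markers of cartilage (Acan, 1089 to 12963 normalized counts), bone (Ibsp, 5749 to 28728), synovium (Prg4, 15886 to 542072) and tendon (Tnmd, 54.4 to 977). Epidermal markers, which a knee joint should lack, summed to 8049 normalized counts in control joint 1 and to 24846 in TLR3-MSC joint 4, against a median of 342 in the TLR group. The collagens did not vary independently of the joint. Control joints 3 and 4, MSC joint 2 and TLR3-MSC joint 5 were the 4 highest of all 20 joints for 20 of the 41 collagen genes, a ranking found in 8.84% of all genes.

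Type I collagen dominated. Levels are compared between genes as normalized counts per kb of exon, a normalized count being the read count divided by a factor for the depth of the joint. Over the 20 joints the median was 24052 per kb for Col1a1 and 11280 for Col1a2, followed by Col3a1 at 4971, Col2a1, the chain of type II, at 2380, Col6a1 (type VI) at 1919 and Col4a1 (type IV) at 1171. Col4a3, Col17a1 and Col4a6 had the lowest medians, at 1.70, 2.44 and 2.53 per kb. The fold between the highest and the lowest joint was 7.14 for Col1a1, 36.5 for Col3a1, 31.9 for Col2a1 and 52.8 for Col9a1, a chain of the cartilage FACIT type IX. For most neighbours in this order the joints overlapped, because the median SD within a group was 0.80 on the log2 scale over collagens and 0.26 over all genes. It was 1.27 over the cartilage chains.

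**Figure D1:**
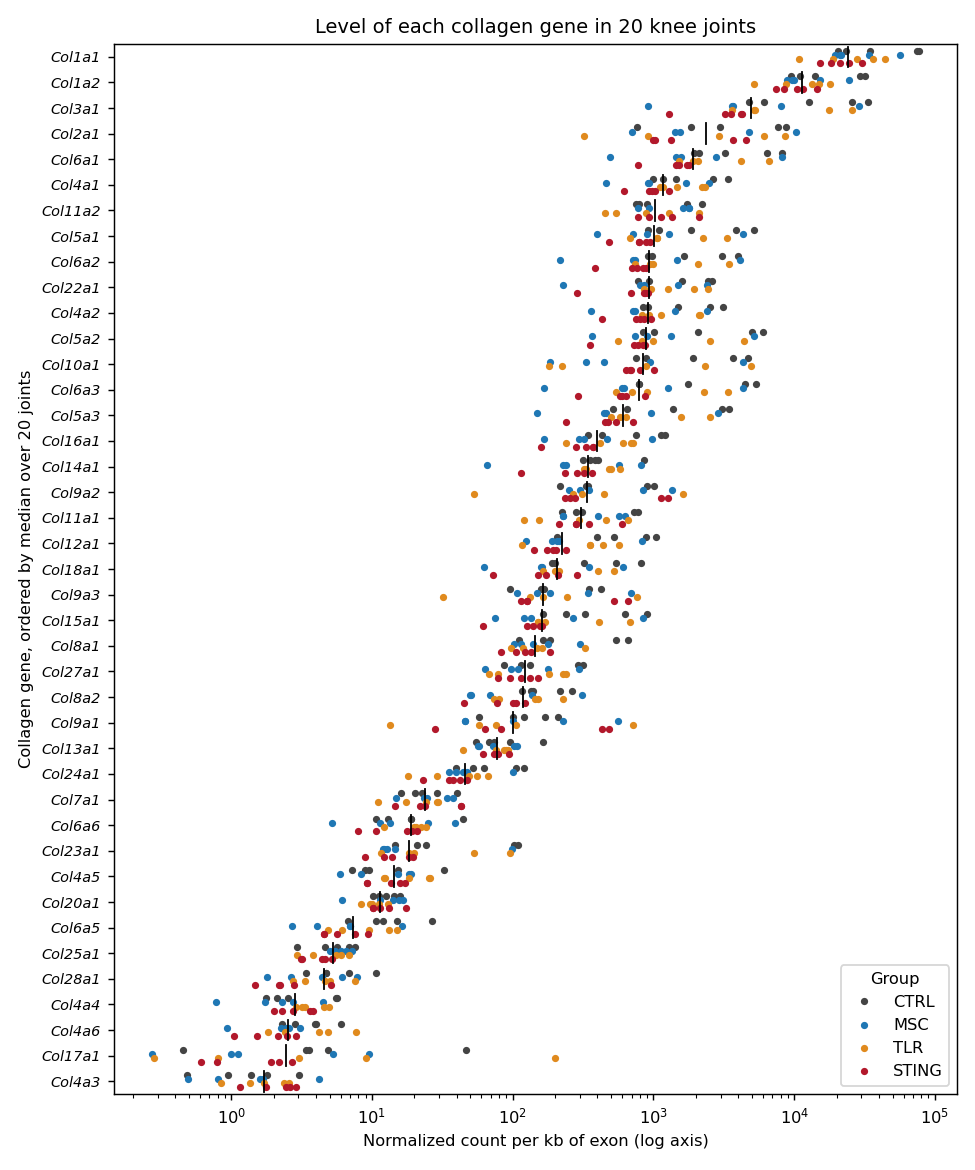
Level of each of the 41 collagen genes, ordered by median, as normalized counts per kb of exon on a log axis; each dot is 1 joint coloured by group and the bar is the median of the 20 joints. Col1a1 (median 24052) and Col1a2 (11280) lead, and Col4a3 (1.70) is the lowest.

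Collagen transcripts took 1.18 to 4.53% of the reads of control joints (median 2.06%), 0.863 to 4.06% in MSC joints (1.40%), 0.770 to 3.28% in TLR3-MSC joints (1.79%) and 0.902 to 1.64% in STING-MSC joints (1.07%). The ranges of all 4 groups overlapped, and the STING-MSC joints held the narrowest range. The type I chains alone took a median of 1.10% in control and 0.699% in STING-MSC joints. Because these are bulk samples of the whole joint, fewer collagen-making cells and less collagen RNA per cell cannot be told apart in any of the results.

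No collagen gene passed an adjusted p of 0.05 in any of the 6 comparisons or in the test for any difference among the 4 groups, with limma or with edgeR or DESeq2 on the recovered reads. Of all 14793 genes, 0.00676% passed that threshold in MSC compared to control and 0.0% in each other pair. The counts that follow therefore use the unadjusted limma p of at most 0.05, read against the share of all genes at the same p. The smallest adjusted p of a collagen gene was 0.311 with limma, 0.283 with edgeR and 0.0591 with DESeq2, all for STING-MSC compared to control.

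The largest collagen differences separated STING-MSC from control joints. Here 20 of the 41 collagen genes met the unadjusted threshold and all 20 were lower in STING-MSC joints, while 12.2% of all genes reached that p and 5.69% did so as lower. The differences of the 20 ran from −2.05 to −0.87 on the log2 scale, with adjusted p of 0.311 to 0.403 (limma). In each of the 20, 5 of 5 STING-MSC joints lay below the control mean, and 17 had an exact permutation p of at most 0.05. Both counts use the same joints by which the 20 genes were selected, so they add no separate evidence. A difference of at least 2-fold at this p was found for 16, and for 1.78% of all genes in that direction. edgeR and DESeq2 each counted 23, all lower. The limma count of 20 rested on control joints 3 and 4 and on STING-MSC joint 5, as it was 7, 4 and 7 without each of these. For these tools and these single joints the share of all genes was not set beside the count. Without control joints 3 and 4 together the count was 0, where 3.16% of all genes reached that p.

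**Figure D2:**
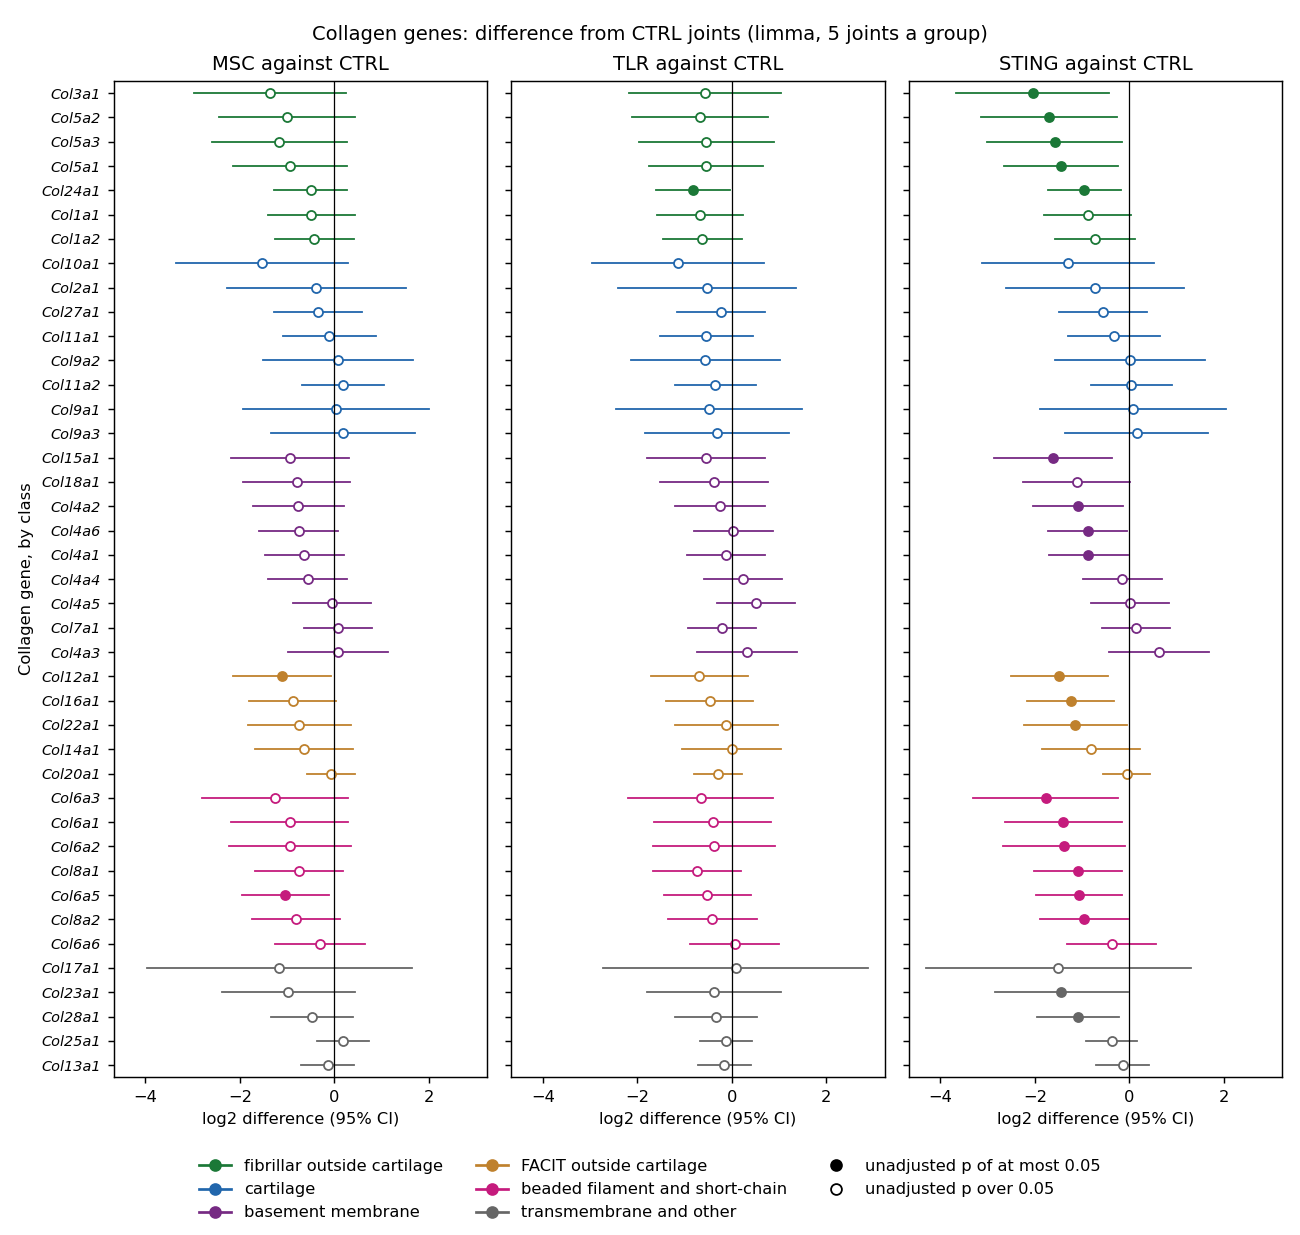
Log2 difference from the control group with its 95% confidence interval (limma) for every collagen gene in MSC, TLR3-MSC and STING-MSC joints, coloured by class; filled points have an unadjusted p of at most 0.05. Filled points number 2, 1 and 20 in the 3 panels, all of them below 0.

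Among the fibrillar chains outside cartilage, all 7 were lower in STING-MSC than in control joints, 5 of them at the unadjusted p, with a median log2 difference of −1.44 compared to 0.01 over all genes. Col3a1, the type III chain of synovium, capsule, vessel walls and repair tissue, stood at 49039.5, 131145, 264175, 343929 and 63115 normalized counts in control joints 1 to 5. In STING-MSC joints it stood at 43096, 36704, 33135, 43455 and 13218. Every STING-MSC joint was below every control joint, control joints 3 and 4 were the highest, and STING-MSC joint 5 was the lowest. The log2 difference was −2.05 (SE 0.77, limma p = 0.0153, adjusted 0.351, exact p = 0.00794, the smallest that 5 joints against 5 allow). Without control joints 3 and 4 it was −1.24 and no longer at the unadjusted p. Joints fully apart in this direction were found for 4 collagen genes, Col3a1, Col6a1, Col6a2 and Col15a1, and for 1.24% of all genes.

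Type V collagen joins type I in the same fibrils and limits their width. Col5a2 stood at 9470.0, 23271, 55657, 67566 and 11296 normalized counts in control joints and at 9783, 8667, 9475, 8112 and 3979.5 in STING-MSC joints. STING-MSC joints 1 and 3 lay just above control joint 1, and the other STING-MSC joints lay below all control joints. The log2 difference was −1.70 (SE 0.68, limma p = 0.0226, adjusted 0.368, exact p = 0.0238), and it was −0.83 without control joints 3 and 4. Its partners Col5a1 (−1.44, limma p = 0.0212, exact p = 0.0159) and Col5a3 (−1.58, limma p = 0.0318, exact p = 0.0476) were lower as well. Col24a1, a minor fibrillar chain of developing bone, ran from 304 to 919 in control and from 176 to 359.6 in STING-MSC joints, a difference of −0.95 (limma p = 0.0186, exact p = 0.0238).

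The type I chains had smaller differences. Col1a1 stood at 134243, 225251, 506977, 487608 and 154323 normalized counts in control joints and at 161581, 140031, 198377, 119177 and 100682 in STING-MSC joints. STING-MSC joints 1, 2 and 3 lay within the control range, and the control range was stretched by joints 3 and 4. The difference was −0.88 (SE 0.44, limma p = 0.0574, adjusted 0.422, exact p = 0.0873) and that of Col1a2 was −0.73 (limma p = 0.0853, exact p = 0.127), so neither met the unadjusted threshold. The amount of Col3a1 per Col1a1 had a median of 52.1% in control, 26.3% in MSC, 52.0% in TLR3-MSC and 26.2% in STING-MSC joints. It ran from 36.5 to 70.5% in control and from 13.1 to 36.5% in STING-MSC joints, which touched without a clear gap, while the MSC joints spread from 7.31 to 79.4%.

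**Figure D3:**
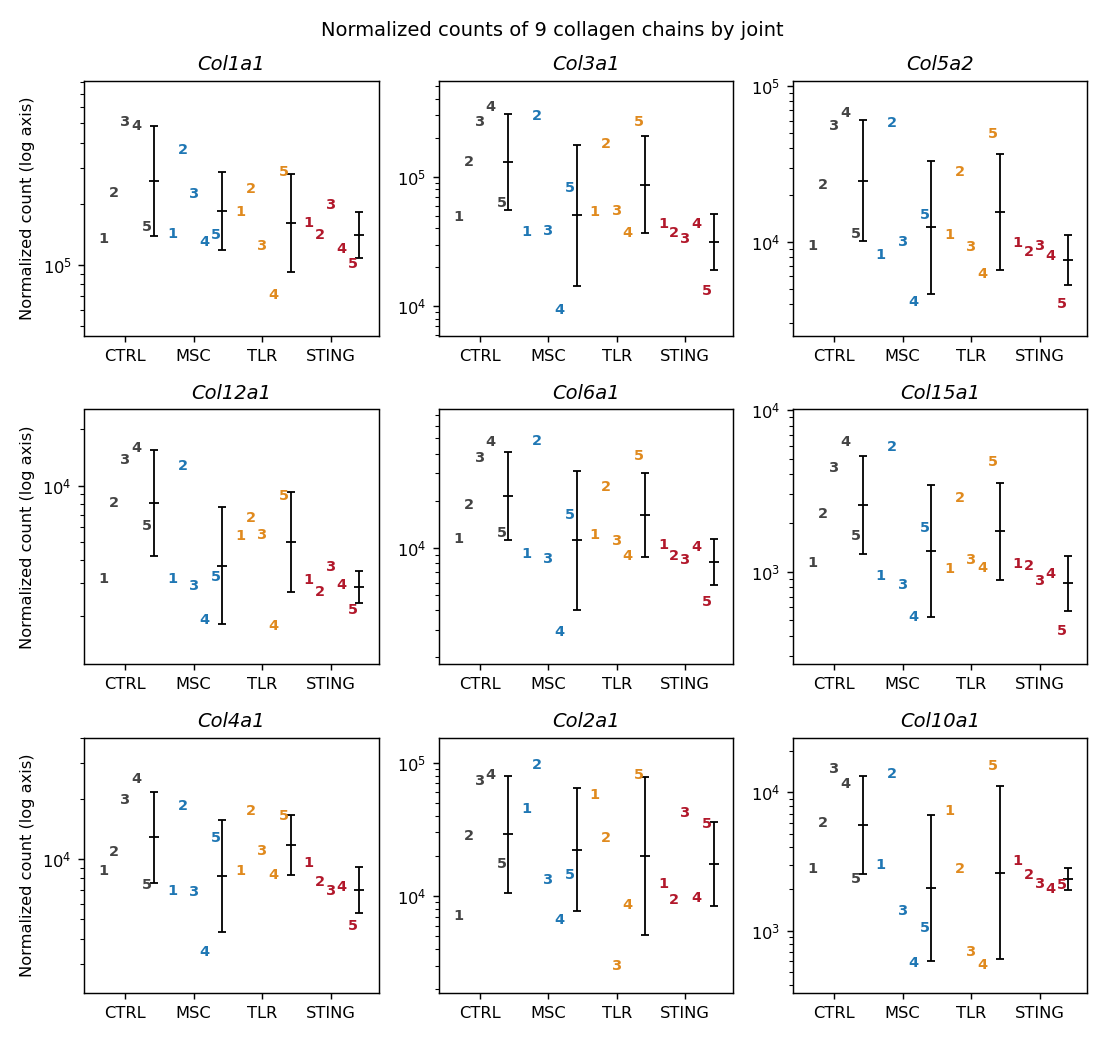
Normalized counts on a log axis of 9 chains (Col1a1, Col3a1, Col5a2, Col12a1, Col6a1, Col15a1, Col4a1, Col2a1 and Col10a1) in every joint; the digit is the joint number and the bar with its whiskers is the mean ± SD on the log2 scale, n = 5. For Col3a1, Col6a1 and Col15a1 all STING-MSC joints lie under all control joints, and for Col2a1 the groups overlap throughout.

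Cartilage chains were divided. Of the 8, 4 were lower and 4 higher in STING-MSC than in control joints, none reached the unadjusted p, and the median log2 difference was −0.16. Col2a1, the main fibril chain of cartilage, stood at 7118, 28001, 72287, 81465 and 17291 normalized counts in control joints and at 12396, 9321, 42253, 9634 and 34442 in STING-MSC joints. Joints of both groups were spread over the same range, with the lowest value in control joint 1 and the highest in control joint 4. The difference was −0.73 with a 95% interval from −2.61 to 1.16 (limma p = 0.428, exact p = 0.373), an interval too wide to exclude a change of 2-fold either way. Col11a1 and Col11a2, whose type XI chains start type II fibrils, differed by −0.33 (limma p = 0.495, exact p = 0.460) and 0.04 (limma p = 0.922, exact p = 0.944). Col9a1 differed by 0.07 (limma p = 0.944, exact p = 0.921), with joints from 293 to 1060.3 in control and from 142 to 2456 in STING-MSC.

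Col10a1, the marker of hypertrophic chondrocytes, stood at 2794, 5951, 14849, 11455 and 2365 normalized counts in control joints and at 3173, 2516, 2176, 1992 and 2152 in STING-MSC joints. The STING-MSC joints lay close together near the lowest control joints, and control joints 2, 3 and 4 lay above them all. The difference was −1.30 (SE 0.87, limma p = 0.152, exact p = 0.0556), and Col10a1 shares exonic bases with Nt5dc1 on the other strand. The ratio of Col10a1 to Col2a1 had medians of 20.5% in control, 8.75% in MSC, 12.8% in TLR3-MSC and 20.7% in STING-MSC joints. It ran from 13.7 to 39.2% in control and from 6.64 to 14.2% in MSC joints, where only MSC joint 2 reached the control range. In TLR3-MSC joints it ran from 6.62 to 23.2% and in STING-MSC joints from 5.15 to 27.0%. Differences in this ratio were not tested. Of the 10 chondrocyte markers other than collagens 0 were at the unadjusted p with limma, with a median difference of −0.26. Of these 10 markers 7 were lower and 3 higher. Their sum ran from 27454 to 94462 normalized counts in control and from 21666 to 36964 in STING-MSC joints. Comp held a large part of that sum, at 13405 to 50427 in control and 7248 to 16539 in STING-MSC joints.

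Of the 9 basement membrane chains, 4 were lower in STING-MSC joints at the unadjusted p and the median log2 difference was −0.87. Col15a1, the type XV chain at the basement membranes of vessels, muscle and nerve, stood at 1137, 2265, 4339, 6284 and 1665 normalized counts in control joints and at 1113, 1078, 871, 972 and 426 in STING-MSC joints. All STING-MSC joints were below all control joints, although STING-MSC joint 1 and control joint 1 nearly met. The difference was −1.61 (SE 0.60, limma p = 0.0141, adjusted 0.341, exact p = 0.00794), and −0.94 without control joints 3 and 4. Col18a1, the type XVIII chain from which endostatin is cut, differed by −1.12 (limma p = 0.0540, exact p = 0.0635).

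The α1 and α2 chains of type IV, present in every basement membrane, were both lower. Col4a1 stood at 8761, 10848, 19622, 25092 and 7420.3 normalized counts in control joints and at 9593, 7639.9, 6906, 7270.2 and 4611 in STING-MSC joints. STING-MSC joints 1 and 2 lay inside the control range and the other 3 lay under it. The difference was −0.87 (SE 0.40, limma p = 0.0415, adjusted 0.393, exact p = 0.0556), and −0.34 without control joints 3 and 4. Col4a2 differed by −1.08 (limma p = 0.0282, exact p = 0.0397). It shares 4.33% of its exonic bases with the overlapping Col4a1, and only reads there cannot be separated between the 2 genes with certainty. Of the rarer chains, Col4a3 differed by 0.63 (limma p = 0.227, exact p = 0.230), Col4a4 by −0.15 (limma p = 0.707, exact p = 0.683) and Col4a5 by 0.01 (limma p = 0.982, exact p = 0.968). Col4a6, at 18.4 to 48.4 normalized counts in control and 8.34 to 23 in STING-MSC joints, differed by −0.88 (limma p = 0.0389, exact p = 0.0397). Col7a1, of the anchoring fibrils under epithelia, differed by 0.14 (limma p = 0.681, exact p = 0.690).

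The FACIT chains outside cartilage had a median log2 difference of −1.15, and 3 of 5 were lower at the unadjusted p. Col12a1, the type XII chain on type I fibrils of tendon, ligament and bone surfaces, stood at 3166, 8062, 13638, 15966 and 6055 normalized counts in control joints and at 3118, 2699.5, 3652, 2954 and 2151 in STING-MSC joints. Only STING-MSC joint 3 reached the control range, and it exceeded control joint 1 alone. The difference was −1.49 (SE 0.49, limma p = 0.00708, adjusted 0.311, exact p = 0.0159), the smallest p of any collagen gene, and −0.90 without control joints 3 and 4. Col12a1 was also the single collagen gene at p of at most 0.05 in the test over the 4 groups (limma F test, adjusted p = 0.764), where 6.42% of all genes reached that p. Col16a1, found on small fibrils, differed by −1.24 (limma p = 0.0108, exact p = 0.0238), and Col22a1, of the junction between muscle and tendon, by −1.15 (limma p = 0.0407, exact p = 0.0556). Col14a1, type XIV of tendon and skin, differed by −0.81 (limma p = 0.120, exact p = 0.0397), with 5989 in control joint 4 and 2219.8 to 2855 in the other control joints. Col20a1 differed by −0.06 (limma p = 0.814, exact p = 0.770).

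The α1, α2 and α3 chains of type VI assemble together. Col6a1 stood at 11315, 18811, 37317, 47588 and 12372 normalized counts in control joints and at 10448, 8923, 8408, 10142 and 4535 in STING-MSC joints. All STING-MSC joints were below all control joints, with STING-MSC joint 5 well under the rest. The differences were −1.40 for Col6a1 (SE 0.59, limma p = 0.0286, adjusted 0.374, exact p = 0.00794), −1.38 for Col6a2 (limma p = 0.0365, exact p = 0.00794) and −1.77 for Col6a3 (limma p = 0.0262, exact p = 0.0238). Col6a5 differed by −1.07 (limma p = 0.0248, exact p = 0.0238) and Col6a6 by −0.37 (limma p = 0.419, exact p = 0.476). The short-chain genes Col8a1 and Col8a2, of vessel walls, differed by −1.09 (limma p = 0.0235, exact p = 0.0873) and −0.96 (limma p = 0.0451, exact p = 0.0159). Within this class 6 of 7 were at the unadjusted p and the median was −1.09.

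The transmembrane and other chains were less uniform. All 5 were lower in STING-MSC joints, with a median of −1.09, and 2 were at the unadjusted p, Col23a1 (−1.44, limma p = 0.0468, exact p = 0.0397) and Col28a1 (−1.09, limma p = 0.0161, exact p = 0.0317), a chain found around Schwann cells of nerve. Col28a1 was low throughout, at 26.5, 38.7, 26.4, 60.3 and 19.1 normalized counts in control joints and 15.7, 12.2, 8.34, 12.5 and 28.8 in STING-MSC joints. STING-MSC joint 5, the lowest for the fibrillar chains, was the highest of its group here and lay within the control range. Col17a1, of the hemidesmosomes of epithelia, stood at 282 in control joint 1 and 1193 in TLR3-MSC joint 4, and at 1.65 to 57.6 in the other 18 joints. These were also the joints with the highest epidermal marker sums, and the part of skin RNA in the Col17a1 levels was not tested.

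Non-activated MSC compared to control gave fewer differences. Of the 41 collagen genes, 34 were lower and 7 higher, with a median log2 difference of −0.64, and 2 met the unadjusted threshold, both lower, while 8.55% of all genes reached that p and 2.91% as lower. Col12a1 stood at 3148, 12777, 2903, 1902 and 3252 normalized counts in MSC joints 1 to 5. MSC joint 2 lay within the upper control range, and the other MSC joints lay around or below the lowest control joint. The difference was −1.11 (SE 0.49, limma p = 0.0364, adjusted 0.543, exact p = 0.0952). Col6a5 was at 63.5, 112, 101, 249 and 142 in control joints and at 38.2, 155, 65.7, 25.6 and 66.2 in MSC joints, a difference of −1.04 (limma p = 0.0281, adjusted 0.510, exact p = 0.103). Class medians were −0.95 for fibrillar chains, −0.94 for beaded filament and short-chain, −0.75 for FACIT, −0.64 for basement membrane and −0.04 for cartilage chains. Leaving out 1 joint at a time moved them, with MSC joint 2 left out at the lower end and MSC joint 4 at the upper: −1.45 to −0.59, −1.39 to −0.58, −1.10 to −0.25 and −0.88 to −0.38 in the same order. The cartilage median ran from −0.38 without MSC joint 1 to 0.19 without MSC joint 4. The tendon and ligament markers were lower in 6 of 6, 1 of them at the unadjusted threshold, with a median of −0.89. The marrow and blood cell markers were higher in 8 of 11, 3 of them at that threshold, with a median of 0.37. The adipocyte markers were higher in 7 of 7, 0 of them at that threshold, with a median of 0.36. Of all 14793 genes, 430 were lower and 835 higher at that threshold. The part of these markers in the collagen differences was not tested. The count of collagen genes was 22 without MSC joint 2, given without the share of all genes. It was 0 without control joints 3 and 4 together, where 5.38% of all genes reached that p.

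TLR3-MSC compared to control gave 1 collagen gene at the unadjusted p, where 3.58% of all genes reached it and 0.906% as lower. This was Col24a1, at 304, 475, 807, 919 and 398 normalized counts in control joints and 375, 422, 219.9, 137 and 511 in TLR3-MSC joints. The groups overlapped, with TLR3-MSC joints 3 and 4 under all control joints. The difference was −0.82 (SE 0.37, limma p = 0.0385, exact p = 0.127). Over the 41 genes 35 were lower and the median was −0.38, with −0.62 for the fibrillar and −0.51 for the cartilage chains. With 1 joint left out the fibrillar median ran from −0.91 (control joint 1) to −0.31 (control joint 4) and the cartilage median from −0.88 (TLR3-MSC joint 1) to 0.05 (TLR3-MSC joint 3). Without control joints 3 and 4 every class median was above 0, from 0.04 for the FACIT to 0.32 for the basement membrane chains. Col3a1 stood at 53127, 180712, 54204, 36928 and 264094 in TLR3-MSC joints, a difference from control of −0.57 (limma p = 0.466, exact p = 0.460). Joint 4 of this group lay under the control range and the other 4 lay within it.

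The 3 comparisons above share the control joints, so a joint that is high among the controls enters all of them. Comparisons among the cell-treated groups do not use the control joints. TLR3-MSC compared to MSC joints gave 0 collagen genes at the unadjusted p with limma, against 3.88% of all genes, and edgeR and DESeq2 gave 2 and 1. Of the 41 genes 28 were higher in TLR3-MSC joints, with a median of 0.40. The smallest p values belonged to the type IV chains Col4a4 (0.80, limma p = 0.0587, exact p = 0.0714) and Col4a6 (0.78, limma p = 0.0633, exact p = 0.127).

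STING-MSC compared to MSC gave 1 collagen gene at the unadjusted p, where 4.94% of all genes reached it. Col25a1, a transmembrane chain of the neuromuscular junction, stood at 78.4, 85.9, 93.5, 70.9 and 65.1 normalized counts in MSC joints and at 40.6, 57.5, 60.5, 67.5 and 41.3 in STING-MSC joints. Only STING-MSC joint 4 reached the MSC range. The difference was −0.57 (SE 0.26, limma p = 0.0427, adjusted 0.938, exact p = 0.0159). Col3a1, for which MSC joints spread from 9436 to 295007, differed by −0.68 (limma p = 0.385, exact p = 0.476), and Col1a1 by −0.40 (limma p = 0.377, exact p = 0.294). The 41 genes had a median of −0.31, with 34 lower and 7 higher.

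STING-MSC compared to TLR3-MSC gave 1 collagen gene at the unadjusted p, where 2.57% of all genes reached it. Col4a6 stood at 38.8, 14.6, 33.5, 61.1 and 19.2 normalized counts in TLR3-MSC joints and at 17, 12.2, 8.34, 20 and 23 in STING-MSC joints. The ranges overlapped at their low ends, and TLR3-MSC joints 1, 3 and 4 lay above all STING-MSC joints. The difference was −0.91 (SE 0.40, limma p = 0.0330, adjusted 0.890, exact p = 0.0794). Col3a1 differed by −1.48 (limma p = 0.0698, exact p = 0.0238), Col22a1 by −1.03 (limma p = 0.0631, exact p = 0.0317) and Col4a1 by −0.75 (limma p = 0.0758, exact p = 0.0317). Of the 41 genes 32 were lower, with a median of −0.55. The class medians were −0.90 for the fibrillar, −0.74 for the basement membrane and 0.30 for the cartilage chains. With 1 joint left out the cartilage median ran from −0.12 (TLR3-MSC joint 3) to 0.61 (TLR3-MSC joint 1) and the fibrillar median from −1.16 (TLR3-MSC joint 4) to −0.59 (TLR3-MSC joint 5). Of all 14793 genes, 264 were lower at the unadjusted threshold in this comparison. The tendon and ligament markers were lower in 6 of 6, 1 at that threshold, with a median of −1.04. The epidermal markers were lower in 7 of 7, 3 at that threshold, with a median of −3.28. Their sum ranged from 244 to 24846 normalized counts in TLR3-MSC joints and from 139 to 314 in STING-MSC joints. This difference rested on TLR3-MSC joints 4 and 3, with mean log2 deviations over these markers of 6.55 and 2.80. The deviations were −0.91, −0.44 and −0.48 in TLR3-MSC joints 1, 2 and 5, and −2.51 to −0.50 in STING-MSC joints. Krt14 had medians of only 2.43 normalized counts in TLR3-MSC and 0 in STING-MSC joints. The part of tendon, ligament and epidermal markers in the collagen differences was not tested. The count of collagen genes was 5 with edgeR, 8 with DESeq2 and 14 when only these 2 groups entered the fit. The share of all genes under these settings was not set beside these counts.

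**Figure D4:**
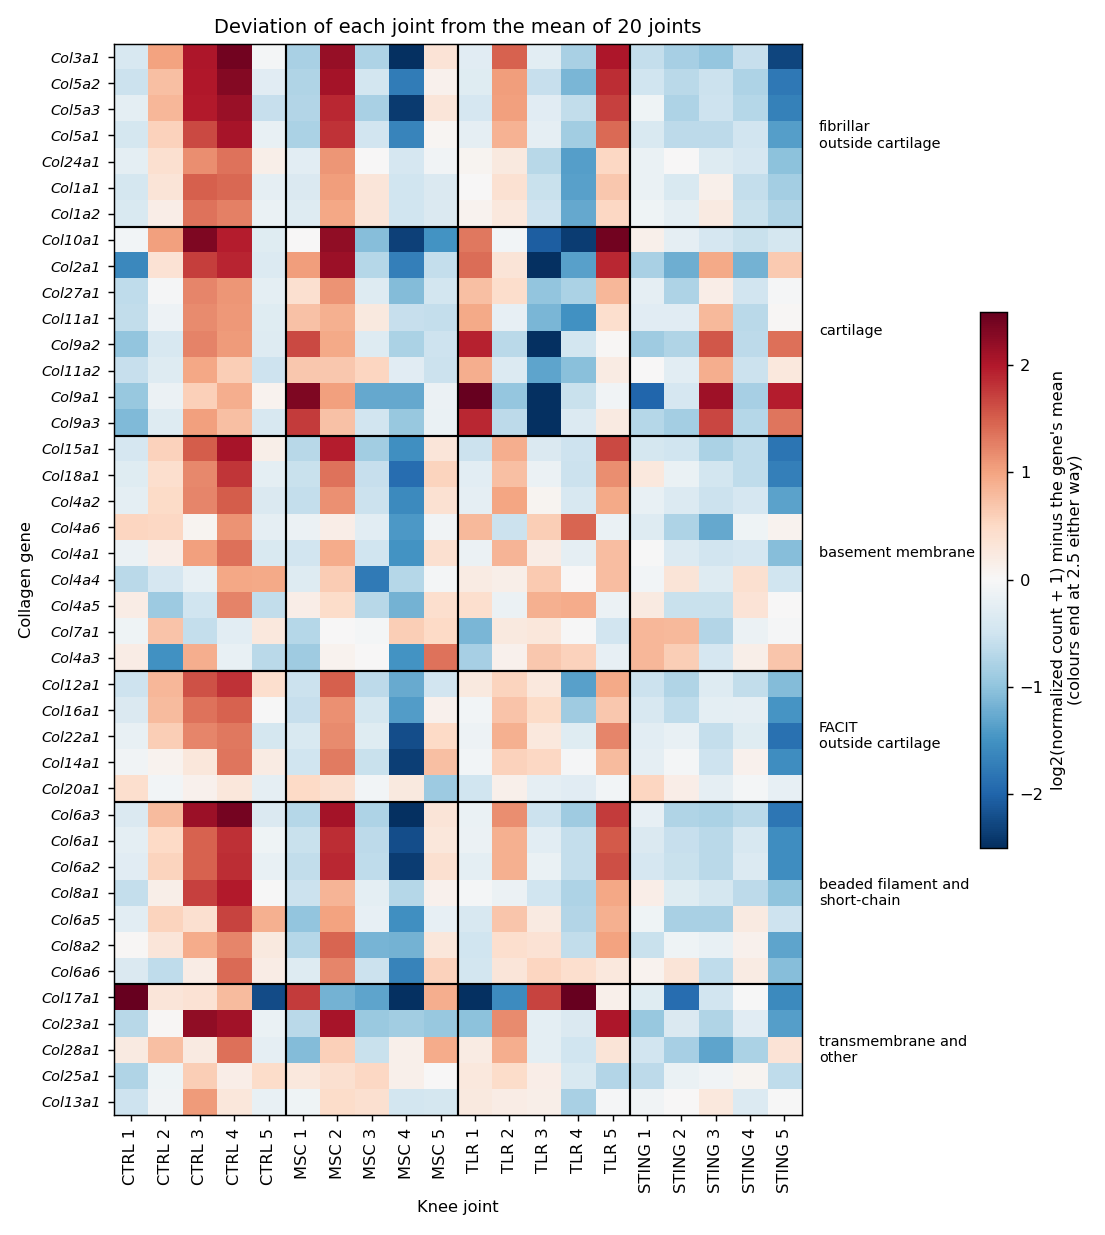
Deviation of each collagen gene (rows, by class) in each of the 20 joints (columns, by group) from that gene's mean over all joints, in log2 units, with the colour scale ending at 2.5. Control joints 3 and 4, MSC joint 2 and TLR3-MSC joint 5 are high across most classes, and MSC joint 4 and STING-MSC joint 5 are low.

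Across joints the collagen genes moved in blocks. The mean log2 deviation over all 41 genes from their own means was 1.35 in control joint 4, 1.12 in MSC joint 2, 1.07 in control joint 3 and 0.79 in TLR3-MSC joint 5. It was −1.28 in MSC joint 4 and −0.70 in STING-MSC joint 5. Control joint 4 was among the 4 highest of the 20 joints for 32 of the 41 genes (30.4% of all genes), and control joint 3 for 28 (22.1%). MSC joint 2 was so for 30 (28.4%) and TLR3-MSC joint 5 for 23 (23.7%). MSC joint 4 was among the 4 highest for 1 collagen gene (20.6% of all genes) and STING-MSC joint 5 for 4 (31.8%).

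The tendon and ligament markers (Tnmd, Scx, Mkx, Fmod, Thbs4 and Kera) were high and low in the same joints. Their mean deviation was 1.18 in control joint 3, 1.56 in control joint 4, 1.85 in MSC joint 2 and 1.46 in TLR3-MSC joint 5, and −1.59 in MSC joint 4 and −1.33 in STING-MSC joint 5. This pattern was not particular to them. In the same order of joints, the synovial and capsule fibroblast markers stood at 0.24, 0.93, 0.92, 0.73, −2.03 and −1.07. The chondrocyte markers stood at 0.91, 1.14, 0.79, 0.46, −1.19 and 0.18. The marrow and blood cell markers went the opposite way, at −0.24, −0.61, −0.40, −0.07, 0.38 and 0.48. All 6 tendon and ligament markers were lower in STING-MSC than in control joints, with a median of −1.32. Of them 3 were at the unadjusted p, against 5.69% of all genes as lower. Their sum ran from 11879 to 63293 normalized counts in control and from 5339 to 11552 in STING-MSC joints, without overlap. Thbs4 and Fmod held most of that sum, and for each of them the groups overlapped slightly. Thbs4 ran from 5227 to 35339 in control and from 2091 to 5283 in STING-MSC joints. Fmod ran from 6157 to 25982.5 in control and from 2968 to 6217 in STING-MSC joints. Of the 9 synovial and capsule fibroblast markers 6 were lower and 3 higher, with 0 of 9 at the unadjusted p and a median of −0.69. They summed to 169650 to 588610 in control and 52310 to 220092 in STING-MSC joints. Prg4 alone held most of that sum, at 150984 to 542072 in control and 40339 to 196213 in STING-MSC joints. Of the endothelial markers 5 of 8, and of the Schwann cell markers 3 of 6, were lower at that p, as were 5.69% of all genes. Marrow and blood cell markers went the other way, with 5 of 11 higher at that p, as were 6.54% of all genes, and a median of 0.47. Adipocyte markers were higher in 7 of 7, with 0 at that p and a median of 0.66. Of 8 skeletal muscle markers 4 were lower and 4 higher, with a median of 0.02. Of 10 osteoblast and osteocyte markers 7 were lower, 1 of them at that p, and 3 higher, with a median of −0.09. How much of each joint was ligament, capsule, vessel or marrow, and its part in the collagen differences, was not tested.

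Correlations were taken over the 20 joints on the log2 scale after subtracting group means, for 20 pairs, with permutations within groups and adjustment over the pairs, and all points share the tissue mix and depth of their joint. Col1a1 and Col1a2 had r = 0.996 (rho 0.995, adjusted permutation p = 3.33e-05 and 2.86e-05, from raw values at the smallest p the permutations allow). Without the 2 joints farthest from the median of Col1a1, r was 0.995. Col6a1 and Col6a2 had r = 0.998 (rho 0.994), Col5a1 and Col5a2 had 0.992 (rho 0.986), and Col4a1 and Col4a2 had 0.991 (rho 0.986), with adjusted permutation p of at most 4.44e-05, and their r without 2 joints was 0.997, 0.991 and 0.989.

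Other pairs, among them chains that assemble together, had lower r. Col4a5 and Col4a6 had r = 0.789 (rho 0.818, adjusted permutation p = 0.000127 and 0.000218, r = 0.729 without 2 joints) and Col8a1 and Col8a2 had r = 0.712 (rho 0.759, adjusted permutation p = 0.000243 and 0.000417, r = 0.717 without 2 joints). Col1a1 and Col3a1 had r = 0.811 (rho 0.830, adjusted permutation p = 0.000243 and 0.000429, r = 0.787 without 2 joints), and r was 0.977 between Col3a1 and its genomic neighbour Col5a2 (rho 0.970, adjusted permutation p = 4.44e-05 for both, r = 0.966 without 2 joints). Col2a1 had r = 0.778 with Col9a1 (rho 0.768, adjusted permutation p = 0.000243 and 0.000429, r = 0.734 without 2 joints). It had r = 0.897 with Col11a1 (rho 0.889, adjusted permutation p = 6e-05, r = 0.903 without 2 joints) and 0.963 with Acan, the aggrecan gene of chondrocytes (rho 0.946, adjusted permutation p = 3.33e-05 and 2.86e-05, r = 0.952 without 2 joints). Col4a3 and Col4a4, which lie head to head and whose chains share a trimer, had r = 0.08 (rho −0.02, adjusted permutation p = 0.794 and 0.947, r = −0.07 without 2 joints), at levels of 4.83 to 64.8 normalized counts in which counting error is large, and their annotated exons overlap. Col17a1 and the epidermal keratin Krt14 had r = 0.868 (rho 0.761, adjusted permutation p = 0.000267 and 0.00137), and r = 0.742 without control joint 1 and TLR3-MSC joint 4.

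The machinery of collagen making was measured alongside. Of 19 genes for folding and modification in the endoplasmic reticulum, which include the prolyl and lysyl hydroxylases, 7 were lower and 0 higher in STING-MSC than in control joints at the unadjusted p, with a median of −0.76. Of 8 genes for export from the endoplasmic reticulum 0 reached that p (median −0.17). Of 12 genes for processing and cross-linking outside the cell, such as the lysyl oxidases, 7 were lower (median −0.89), and of 10 collagen receptors 3 were lower (median −0.25). These shares stand against 5.69% of all genes as lower. In MSC and in TLR3-MSC compared to control joints, 0 of the 19 folding and 0 of the 12 processing genes reached the unadjusted p with limma. Of all genes, 2.91% and 0.906% did so as lower, so a count of 0 in lists this short is near that share. In MSC joints 17 of the 19 and 12 of the 12 were lower without regard to p, with medians of −0.38 and −0.63. In TLR3-MSC joints 18 of the 19 and 10 of the 12 were lower, with medians of −0.18 and −0.20.

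Collagen degradation genes were divided. Of 6, 4 were lower and 1 higher in STING-MSC than in control joints at the unadjusted p, against 5.69% of all genes as lower and 6.54% as higher. Mmp2, a gelatinase, ran from 4872 to 27590 normalized counts (median 11327) in control and from 1702 to 4317 (median 3232) in STING-MSC joints, a difference of −1.97 (SE 0.69, limma p = 0.00991, adjusted 0.330, exact p = 0.00794). Mmp14, the membrane-bound collagenase that activates Mmp2, ran from 4968 to 22999 in control and from 3329 to 4528 in STING-MSC joints, a difference of −1.43 (limma p = 0.00744, adjusted 0.315, exact p = 0.00794). For both genes, named for their small p, the groups did not overlap, as for 1.24% of all genes in that direction. Mmp8, the neutrophil collagenase, went the other way, from 7383 to 13064 in control to 9899 to 17598 in STING-MSC joints, with overlap, a difference of 0.55 (limma p = 0.00692, adjusted 0.310, exact p = 0.0317). It differed from control by 0.61 in MSC and by 0.43 in TLR3-MSC joints, also at the unadjusted p. Beside this, 5 of the 11 marrow and blood markers were higher in STING-MSC joints at that p, as were 6.54% of all genes. The part of marrow cells in the Mmp8 levels was not tested.

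**Figure D5:**
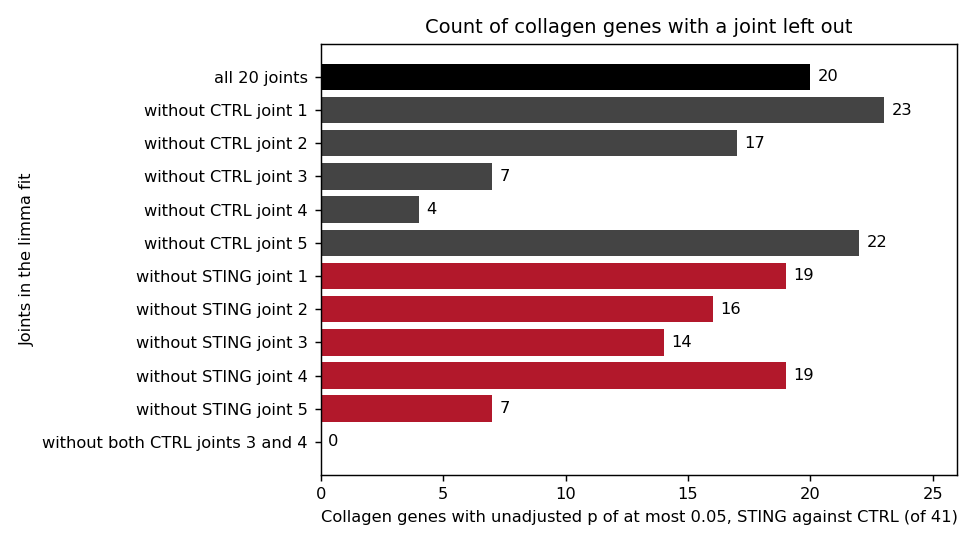
Number of collagen genes with an unadjusted limma p of at most 0.05 in STING-MSC compared to control joints, with all joints and with each of the 10 joints left out in turn. The count of 20 drops to 4 without control joint 4 and to 7 without control joint 3 or STING-MSC joint 5.

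The count for STING-MSC compared to control changed with single joints of both groups. Without control joints 3 and 4 the class medians were −0.70 for fibrillar, −0.34 for basement membrane, −0.64 for FACIT, −0.73 for beaded filament and short-chain and −0.47 for transmembrane and other chains, still below 0, and 0.38 for the cartilage chains. Of the 20 genes, 4 still reached the unadjusted p without control joint 4, 7 without control joint 3, 7 without STING-MSC joint 5 and 0 without both control joints. All 20 reached it with edgeR and with DESeq2, which used the same joints and so do not offset this dependence.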

How the data were processed

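The deposited table holds normalized counts per gene, a signal that the authors made from poly(A) TruSeq libraries with STAR 2.7.3a, HTSeq and DESeq2 on GRCm39 (per the labels and methods). The strand setting and any low-count filter are not given in the sources used here. Groups and joint numbers came from the labels, and no column of values was left out. All 14793 genes were fitted with limma 3.58.1 (R 4.3.3) with trend on log2(normalized count + 1) over the 20 joints in 4 groups, two-sided, with Benjamini-Hochberg adjustment over all genes, and a fold on this scale understates changes of low genes. A minimum mean of 5 removed 0 genes. Single genes were also tested by exact two-sided permutation over the 252 splits of 5 joints against 5, and correlations with 100000 permutations (scipy 1.17.1). Whole reads were recovered from the values and tested with edgeR 4.0.16 and DESeq2 1.42.0 as alternatives. Further settings tried were a pseudocount of 0.5 or 5, no minimum or a minimum of 20, quantile normalization, fits of only the compared groups, a replicate block and leaving out each joint. The scripts were tested on simulated data.

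The members, classes and gene lists were chosen with earlier results of these data known. Genes named with values are 20 chains that define the classes, every collagen gene at an unadjusted p of at most 0.05 in a comparison or the F test, the 3 smallest p in each comparison, and the 3 smallest p among the collagen machinery genes. Other values are given by range. Col4a3, Col6a6, Col17a1 and Col20a1 fall outside this rule and were named after their values were seen. Exon lengths came from GENCODE M39, whose ends match the deposited ends within 1 base for 9 of the 41 genes.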

Additional observations from a re-analysis of the deposited data

Results flagged for a closer look

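In 12 of 132 gene and group pairs checked, 1 joint stood apart from the other 4, its gap to the nearest joint being over 0.71 of the range of the group. Chance flags about 1 in 20 such groups, and the genes are not independent of each other.

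STING-MSC joint 5 was the low joint for 7 of the 12. It held 13218 normalized counts of Col3a1 (other STING-MSC joints 33135 to 43455), 4195 of Col5a1 (6852 to 8299) and 3979.5 of Col5a2 (8112 to 9783). It also held 4535 of Col6a1 (8408 to 10448), 4219 of Col6a2 (7743 to 9668), 426 of Col15a1 (871 to 1113) and 2743 of Col22a1 (6655 to 8773).

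MSC joint 2 was high for 3 genes, with 12777 normalized counts of Col12a1 (other MSC joints 1902 to 3252), 583 of Col23a1 (71.3 to 86.5) and 770.3 of Col24a1 (268 to 361). MSC joint 4 was low for Col4a6, at 7.42 (17.9 to 24.4), and control joint 4 was high for Col14a1, at 5989 (2219.8 to 2855).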

How the results depend on the processing

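The count of collagen genes at an adjusted p of at most 0.05 was 0 under every alternative run. At the unadjusted p, the counts of 2 (MSC compared to control), 1 (TLR3-MSC compared to control), 20 (STING-MSC compared to control), 0 (TLR3-MSC compared to MSC), 1 (STING-MSC compared to MSC), 1 (STING-MSC compared to TLR3-MSC) and 1 (4 groups) changed as follows. With edgeR they were 1, 2, 23, 2, 1, 5 and 5, and with DESeq2 they were 3, 2, 23, 1, 1, 8 and 8. With only the compared groups in the fit, the first and second were 0 and that of STING-MSC and TLR3-MSC was 14, and with quantile normalization that of STING-MSC and MSC was 0.

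Leaving out 1 joint at a time gave 0 to 22, 0 to 3, 4 to 23, 0 to 6, 0 to 1, 0 to 5 and 0 to 18 in the same order. No share of all genes is set beside the counts of these alternatives, so they show only how far the collagen counts moved. The class medians moved too. For STING-MSC and control the fibrillar median ran from −1.74 to −1.11 and the cartilage median from −0.48 to 0.05. The cartilage median also crossed 0 in every other comparison when 1 joint was left out. The transmembrane class median ran from −1.28 to −0.67 (STING-MSC and control) and from −0.90 to −0.34 (STING-MSC and TLR3-MSC).

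Leaving out control joints 3 and 4 together, chosen after seeing the data, gave 0 in each comparison with control and over the 4 groups. The transmembrane class median was then −0.47 (STING-MSC and control) and −0.0022 (MSC and control), and Col8a1 in TLR3-MSC compared to control turned to 0.0583.

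Joint numbers are shared between groups but mark different mice. With the replicate block the counts were 2, 1, 17, 0, 1, 1 and 1, and the mean correlation of same-numbered joints ran from −0.144 to 0.108, so the pairing rests on a number only. With 5 joints a group and this spread between joints, differences of the cartilage chains were poorly determined.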
